A study of Mus musculus with 4 samples.

Results

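The genes described here encode the machinery of neurotransmitter release and of the synaptic vesicle cycle. The set holds 35 genes, chosen by function, out of 16524 named genes with a usable probe. Earlier results of these data were known when the set was chosen. A probe was assigned to a member through its RefSeq accession, which gave 55 of the 56605 probes of the array design. All 35 genes had at least 1 probe with signal well above the local background, and 54 of the 55 probes were kept for testing. The one left out, the dimmest probe of Bsn, was well above background on 0 of the 4 arrays.

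Chemical synapses store transmitter in vesicles, dock them at the active zone of the presynaptic membrane and fuse them when calcium enters. Fusion is driven by SNARE proteins, timed by the calcium sensors of the synaptotagmin family, and followed by retrieval of the membrane through endocytosis. In the cerebellum, granule cells, Purkinje cells, interneurons and incoming mossy and climbing fibres all use this machinery, so that most of these genes are expressed in many cell types at once. Some members are more restricted, such as Slc17a6, which encodes the vesicular glutamate transporter VGLUT2. For mossy and climbing fibres that start outside the cerebellum, the messenger RNA stays in cell bodies that are not part of the dissected tissue.

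Cerebellum was taken from C57BL/6 mice at postnatal day 28 and its RNA was hybridised to 4 one-colour Agilent arrays. The 2 control samples were Derlin-2 flox/flox, and nothing in the labels says that they carried Cre. The 2 knockout (KO) samples came from flox/flox mice that also carried nestin-Cre, a recombinase switched on in precursors of neurons and glia, so that cells of other origins, such as vessels and microglia, keep the gene. Derlin-2, encoded by Derl2, is a membrane protein of the endoplasmic reticulum that helps to send misfolded proteins to degradation. The labels do not state that each sample came from a separate mouse, and p-values then measure only the spread between these samples. With 2 arrays in a group, their number limits how precise any value can be.

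The arrays were alike in quality, with 66.4% to 69.4% of spots well above background and 0 saturated spots. Derl2 checked the labels: one probe read 2.13 and 2.20 in control and 0.81 and 0.70 in KO on the log2 scale, and the other 0.44 and 0.47 in control and −1.22 and −1.32 in KO. The KO arrays thus held 37.6% and 30.2% of the control signal on these probes. Markers of cerebellar neurons were present, with 9 of 9 granule cell genes and 9 of 9 Purkinje cell genes measured, and 0 of these 18 had an unadjusted p under 0.05. The Purkinje cell gene Car8 read 1.02 on KO replicate 1 and 3.13 to 3.99 on the other arrays. Of 9 interneuron and GABA neuron genes 8 were measured, 7 lower in KO and 1 higher, where 10557 of all 16524 genes were lower. The median of these 8 against the control mean was −0.03 on KO replicate 1 and −0.22 on KO replicate 2. Control replicate 1 carried a patch of raised local background that covered 1350 of 59305 spots, and 3 member probes had their spot on it. Control replicate 2 had a high signal of choroid plexus markers, with a summed signal of 137.7 against 6.68 to 7.08 on the other arrays, in units of each array's 75th percentile. The slide position and the group cannot be told apart, since the controls were read at the first positions and the knockouts at the last.

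Signals are given as log2 of the processed intensity minus the array's 75th percentile, so that 0 is the level of a fairly bright probe and each step of 1 is a doubling. Each gene is read from its brightest kept probe unless stated otherwise. Levels of different probes are not comparable with each other, since probes differ in how well they bind.

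To show the control regions of the genes that the results return to, the 250 bases before the transcription start were read from RefSeq (build GRCm38.p6) for 3 members with a single listed start. Promoters were matched for 28 of the 35 members. Syn1 is shown because it was the only matched member with an RE1 element, the binding site of the neuronal repressor REST, within 3 mismatches of the consensus, and with the cAMP response element TGACGTCA. Rims3 and Unc13a are shown because they had the smallest unadjusted p among the active zone genes, with differences of opposite sign. Capitals mark the RE1 match and TGACGTCA in Syn1, and the GC box GGGGCGGGG or its reverse complement in the others, and all sequences run 5′ to 3′ on the strand of the gene.
Syn1, chrX:20920919-20921168, minus strand: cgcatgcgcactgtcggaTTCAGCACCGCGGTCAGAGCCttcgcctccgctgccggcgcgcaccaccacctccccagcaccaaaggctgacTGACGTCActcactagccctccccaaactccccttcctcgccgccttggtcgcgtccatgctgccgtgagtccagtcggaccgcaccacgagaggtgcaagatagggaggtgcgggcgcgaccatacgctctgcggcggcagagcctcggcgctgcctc
Rims3, chr4:120854549-120854798, plus strand: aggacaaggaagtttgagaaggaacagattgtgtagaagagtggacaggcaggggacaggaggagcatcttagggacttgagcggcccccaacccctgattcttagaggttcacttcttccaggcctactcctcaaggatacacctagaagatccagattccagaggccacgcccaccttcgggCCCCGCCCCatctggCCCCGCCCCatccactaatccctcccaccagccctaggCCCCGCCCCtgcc
Unc13a, chr8:71671758-71672007, minus strand: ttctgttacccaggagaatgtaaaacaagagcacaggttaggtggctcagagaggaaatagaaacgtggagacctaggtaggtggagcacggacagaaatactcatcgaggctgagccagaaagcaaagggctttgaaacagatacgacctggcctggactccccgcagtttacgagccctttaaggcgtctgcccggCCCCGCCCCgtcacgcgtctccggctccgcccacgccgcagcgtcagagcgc

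The RE1 match of Syn1 started 232 bases before the transcription start and had 2 mismatches to the consensus. Such a match, at 3 mismatches or fewer on either strand, was present in 19 of 32851 RefSeq promoters (0.0578%), and TGACGTCA in 508 (1.55%). The Rims3 promoter held 3 GC boxes and the Unc13a promoter 1. The GC box was found in 7 of the 38 listed promoters of the members (Erc1, Rab3a, Rims3, Sv2a, Syp, Unc13a and Unc13b) and in 10.4% of all promoters. TATAAA was found in 2 of the 38, both of Sv2b, against 12.4% of all. All motifs were searched on both strands, and TGACGTCA reads the same on both. The median GC content was 59.2% in the members' promoters and 52.4% in all. These matches describe the sequences only.

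The comparison of KO with control asked whether the expression of the release machinery differed in the cerebellum after the loss of Derlin-2. The differences were small. Over the 35 genes they ran from −0.60 for Slc17a6 to 0.44 for Synpr on the log2 scale, with 16 above 0 and 19 below, and a median of −0.02. The median over all 16524 genes was −0.06, with 5967 above 0 and 10557 below. No member passed the threshold of an adjusted p under 0.05 in limma with Benjamini-Hochberg adjustment, and neither did any gene of the whole table (0% called). Derl2, the deleted gene, did not pass either, with a limma adjusted p of 0.273 for both of its probes. The threshold could thus miss even a large difference, and a member that did not pass is not shown to be unchanged. At an unadjusted p under 0.05 there was 1 member, Rims3, higher in KO, against 8.81% of all genes (3.16% higher and 5.65% lower).

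The KO and control arrays did not overlap for 15 of the 35 members, 6 of them higher and 9 lower, where 45.9% of all genes did not overlap (13.8% higher and 32.1% lower). A difference of at least 1.5-fold together with groups that did not overlap was found for Slc17a6 alone among the members, lower in KO, against 3.90% of all genes in either direction and 2.58% lower. The members' median absolute difference between the groups was 0.12, where it was 0.14 over all genes. Between single arrays, which vary more than means of 2, the same measure was 0.10 between both controls and 0.12 between both knockouts. For 28 of the 35 members the unadjusted 95% interval of the difference stayed within 1.5-fold in both directions, as it did for 65.1% of all genes. The 7 members whose interval reached further were Slc17a6, Synpr, Syt7, Vamp1, Stx1a, Unc13a and Unc13b.

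**Figure D1:**
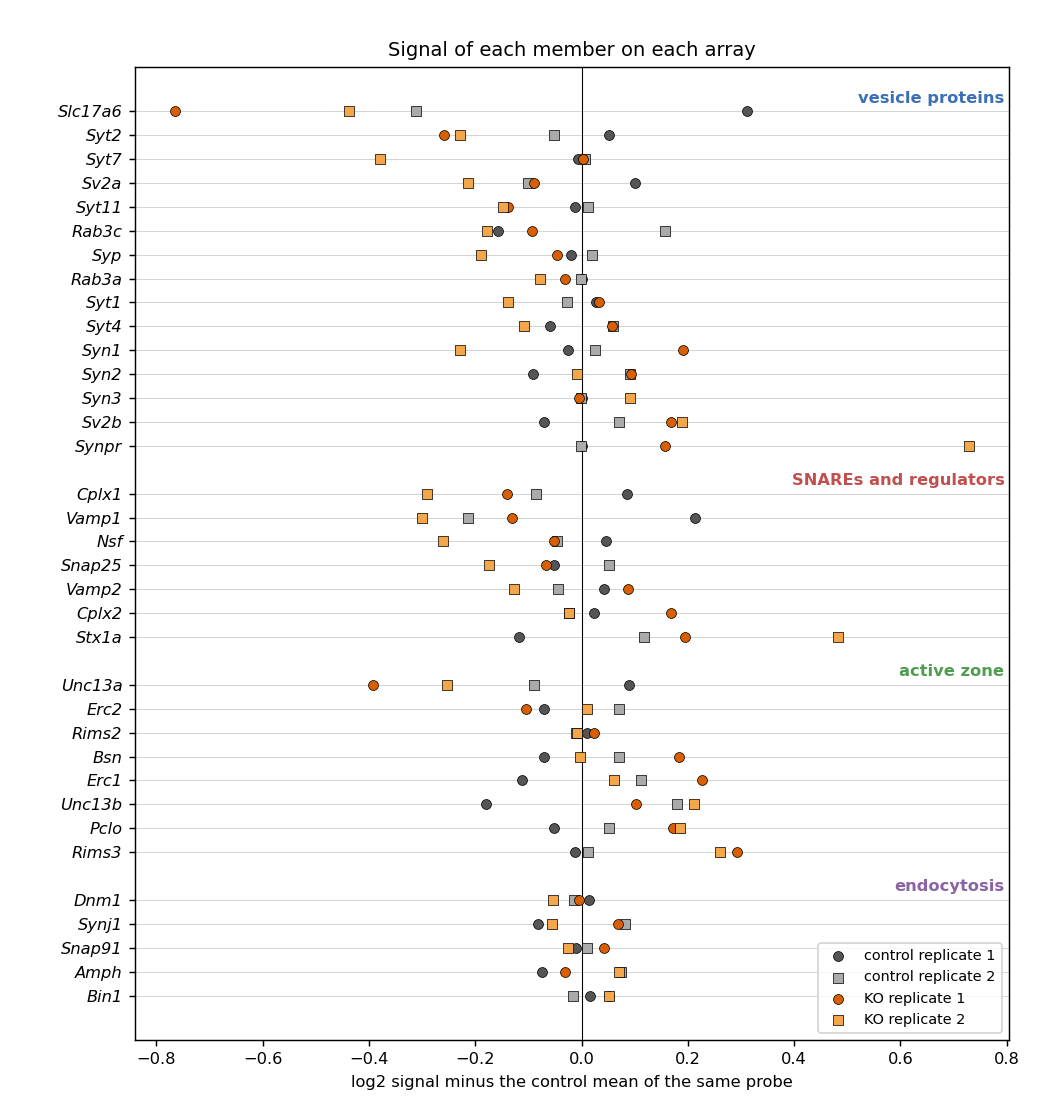
Each row is 1 member and each point 1 array, plotted as log2 signal minus the mean of the 2 control arrays for the same probe; circles and squares mark replicates 1 and 2. Slc17a6 has the lowest mean of the KO points, at −0.60, and Synpr the highest, at 0.44.

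Among the vesicle proteins, the calcium sensors came first. Syt1, the fast sensor of many forebrain synapses, read 5.08 and 5.03 in the controls and 5.09 and 4.92 in KO. Syt2, a fast sensor found at many hindbrain and cerebellar synapses, read 0.77 and 0.67 in the controls and 0.46 and 0.49 in KO. Both KO arrays were below both controls for Syt2, while for Syt1 the groups overlapped. The Syt2 difference was −0.24 (SE 0.10, limma adjusted p 0.391), and its second probe gave −0.08 with overlapping groups. Syt7, a slower, high-affinity sensor, stood at −0.12, −0.11 and −0.11 on 3 arrays and at −0.49 on KO replicate 2. Its difference of −0.19 thus came from that array. Syt11, which does not bind calcium in the usual way and acts in membrane retrieval, read 5.61 and 5.64 in control and 5.49 and 5.48 in KO, a difference of −0.14. Syt4, also a weak calcium binder, differed by −0.03.

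The synapsins tether vesicles in the reserve pool. Syn1 read 4.53 and 4.58 in the controls, and 4.74 and 4.32 on the KO arrays, which fell on either side of the controls. Its difference was −0.02, with an interval from −0.48 to 0.44. Syn2 and Syn3 each differed by 0.04 with overlapping groups. The spot of the bright Syn2 probe lay on the background patch of control replicate 1, and the other Syn2 probe, off the patch, gave −0.15 with groups that did not overlap.

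Synaptophysin (Syp), an abundant membrane protein of the vesicle, read 5.25 and 5.29 in control and 5.22 and 5.08 in KO. The groups did not overlap, but the difference of −0.12 had an interval from −0.41 to 0.18. Its relative synaptoporin (Synpr) behaved in another way, with 3.11 on both control arrays, 3.27 on KO replicate 1 and 3.84 on KO replicate 2. The KO arrays were both higher and far apart from each other, and the difference of 0.44 (SE 0.22, limma adjusted p 0.434) rested mostly on the second. It was 0.16 without KO replicate 2 and 0.73 without KO replicate 1. Sv2a, the target of the antiepileptic drug levetiracetam, differed by −0.15 and its paralogue Sv2b by 0.18. Sv2b was higher on both KO arrays, at 3.45 and 3.47, than on either control, at 3.21 and 3.36.

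Rab3a and Rab3c are small GTPases that ride on the vesicle and help it dock. Rab3a was read by a probe printed in 10 spots per array, which gave 6.60 on both control arrays and 6.57 and 6.52 in KO, a difference of −0.05. Its other probe gave −0.17, and both Rab3c probes were also below 0, at −0.14 and −0.17. For Rab3a both probes, and for Rab3c the dimmer one, had groups that did not overlap.

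Slc17a6 loads glutamate into vesicles and in the cerebellum itself is best known from excitatory neurons of the deep nuclei. It read 0.20 and −0.43 in the controls and −0.88 and −0.55 in KO. The KO arrays were both lower, but control replicate 2 and KO replicate 2 were only a little apart. The difference of −0.60 (SE 0.26, limma adjusted p 0.392) left 65.9% of the control signal, with an interval from −1.29 to 0.09. It was −0.29 without control replicate 1 and −0.91 without control replicate 2. In such bulk samples, fewer cells of a type and less RNA per cell cannot be told apart. Of the other vesicular glutamate transporters, which are not members, Slc17a7, the form of granule cells, gave −0.04 and Slc17a8 −0.33, both with overlapping groups.

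Markers of neighbouring tissue were read beside Slc17a6. Of 7 genes listed for deep nuclei, brainstem and other glutamate neurons, Slc17a6 among them, 4 were measured. The differences of Tbr1, Lhx9 and Hoxb3 were −0.39, −0.18 and −0.02. Tbr1, a transcription factor of the medial deep nucleus, read −2.36 and −1.93 in control and −2.64 and −2.43 in KO. Lhx9 and Hoxb3 had overlapping groups, while Hoxa5, Hoxb5 and Hoxc4 had no usable probe. The summed signal of the 3 measured genes other than Slc17a6 was 0.361 and 0.396 in control and 0.304 and 0.327 in KO, in units of the array's 75th percentile. The part of these markers in the Slc17a6 value was not tested.

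The SNARE proteins and their regulators had a median difference of −0.12 over 7 genes. Snap25, a SNARE of the presynaptic membrane, was read by a pair of probes. The brighter read 6.60 and 6.70 in control and 6.58 and 6.48 in KO, and the dimmer 3.26 and 3.27 in control and 3.08 and 3.05 in KO. Both probes had KO below control, with differences of −0.12 and −0.20 (SE 0.11 and 0.10, limma adjusted p 0.635 and 0.434). Vamp2, the main vesicle SNARE, read 5.19 and 5.10 in control and 5.23 and 5.02 in KO, and its difference was −0.02. Vamp1, the form that prevails in brainstem and spinal cord, read 4.30 and 3.87 in control and 3.96 and 3.79 in KO. Control replicate 1 alone stood high, the groups overlapped, and the difference was −0.22 (SE 0.18).

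Stx1a, the syntaxin that pairs with Snap25, went the other way, with −2.49 and −2.26 in control and −2.18 and −1.89 in KO. Both KO arrays were higher, and the difference was 0.34 (SE 0.16, limma adjusted p 0.421). It was 0.22 without control replicate 1, 0.19 without KO replicate 2 and 0.21 under the normexp background correction. Complexins clamp the assembled SNAREs until calcium arrives. Cplx1 read 5.83 and 5.66 in control and 5.60 and 5.45 in KO, a difference of −0.22 (SE 0.12, limma adjusted p 0.485). It was −0.13 under spike-in scaling and without control replicate 1, and −0.14 without KO replicate 2. For Cplx2 the pair of probes disagreed in sign, with 0.07 for the brighter and −0.22 for the other.

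Nsf, the ATPase that takes spent SNARE complexes apart, had 3 probes. The brightest read 4.996 and 4.902 in control and 4.897 and 4.69 in KO, a difference of −0.16 (SE 0.12, limma adjusted p 0.592). It was −0.05 without KO replicate 2, −0.26 without KO replicate 1, −0.09 under quantile normalization and −0.07 under spike-in scaling. Of the other probes, one gave −0.11 with overlapping groups and the other 0.56, with −0.73 and −0.05 in control and 0.27 and 0.07 in KO. The latter had its spot on the background patch of control replicate 1, the array on which it was lowest.

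The active zone genes had a median difference of 0.12 over 8 genes, with 6 above 0 and 2 below. Of all 16524 genes, 5967 were above 0. Rims3, a short member of the RIM family of scaffolds, read −3.13 and −3.11 in control and −2.83 and −2.86 in KO. The 2 arrays of each group agreed within 0.05 and the groups did not overlap. Its difference was 0.28 (SE 0.10, unadjusted p 0.0424, limma adjusted p 0.343), so that the KO signal was 121% of the control signal. The probe was dim, and its difference was 0.22 under the normexp background correction. Rims2, a long RIM that links vesicles to calcium channels, differed by 0.01 on its brighter probe, with all 4 arrays between 2.12 and 2.15. Its dimmer probe, listed for another transcript, read 0.04 and 0.08 in control and 0.56 and 0.31 in KO, a difference of 0.38 (SE 0.13, unadjusted p 0.0386, limma adjusted p 0.336).

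The Munc13 proteins prime docked vesicles for fusion. Unc13a read −3.11 and −3.28 in control and −3.59 and −3.45 in KO, and the difference was −0.32 (SE 0.12, limma adjusted p 0.363). Both KO arrays were below both controls. This probe was also dim, and its difference was −0.22 under the normexp background correction. Unc13b gave 0.16, with control replicate 1 lowest at 1.13 and the other arrays between 1.41 and 1.52.

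Bassoon and piccolo, encoded by Bsn and Pclo, are the giant scaffolds of the active zone. The brightest Pclo probe read 3.51 and 3.62 in control and 3.74 and 3.75 in KO, a difference of 0.18 (SE 0.10, limma adjusted p 0.486), while its other probes gave −0.13 and 0.08 with overlapping groups. Bsn differed by 0.09 on its brightest probe (SE 0.13, limma adjusted p 0.759). Its second probe gave −0.69 (SE 0.65, limma adjusted p 0.645). It read −1.09 on control replicate 1 and −2.90, −2.42 and −2.95 on the other arrays, and this spot also lay on the patch. The ELKS proteins Erc1 and Erc2 bind RIMs. Erc1 gave 0.14, 0.17 and −0.19 on 3 probes, and Erc2 gave −0.05 and 0.22 on a pair.

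**Figure D2:**
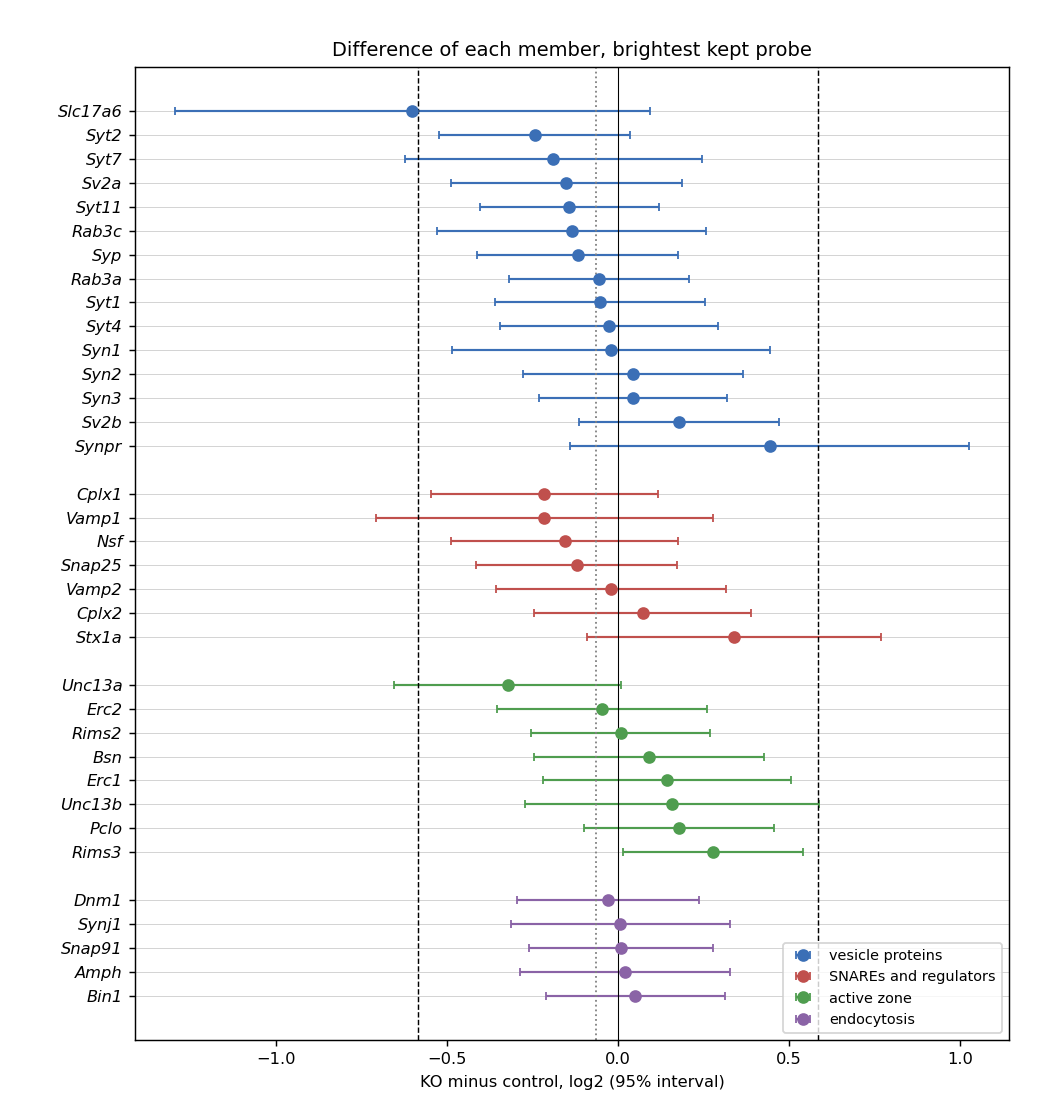
Points are KO minus control differences in log2 for the brightest kept probe of each member, bars are unadjusted 95% intervals from limma, dashed lines mark 1.5-fold and the dotted line the median of all genes (−0.06). The interval of Rims3 alone lies clear of 0, and 28 of 35 intervals lie within the dashed lines.

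The endocytosis genes had the smallest differences. Dnm1, the GTPase dynamin that pinches off new vesicles, read 7.21 and 7.18 in control and 7.19 and 7.14 in KO, a difference of −0.03 (SE 0.10, limma adjusted p 0.906). Amph and Bin1, the amphiphysins that bend the membrane and recruit dynamin, gave 0.02 and 0.05 (SE 0.11 and 0.10, limma adjusted p 0.946 and 0.828). Bin1 read 4.72 and 4.68 in control and 4.75 on both KO arrays, so that its groups did not overlap in spite of the small difference, while its dimmer probe gave −0.08 with overlapping groups. The dimmer Dnm1 probe gave −0.17, below control on both KO arrays. Bin1 is also made by oligodendrocytes. The oligodendrocyte markers had a median difference of −0.35 in these samples with 8 of 8 below 0, where 10557 of all 16524 genes were. The summed signal of those markers was 361 to 382 in control and 312 to 347 in KO, and their part in the Bin1 value was not tested. Synj1, the lipid phosphatase that uncoats vesicles, and Snap91, a clathrin adaptor, each gave 0.01. All 5 intervals stayed within 1.5-fold, with outer limits of −0.31 and 0.33.

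The role groups were set side by side as a description, with no test. Medians were −0.05 for 15 vesicle proteins, −0.12 for the SNARE group, 0.12 for the active zone and 0.01 for endocytosis, against −0.06 over all genes. Groups did not overlap for 7 vesicle proteins (2 higher, 5 lower), 4 SNARE genes (1 higher, 3 lower), 3 active zone genes (2 higher, 1 lower) and 1 endocytosis gene (higher), where 45.9% of all genes did not overlap, 13.8% higher and 32.1% lower. Scaling the arrays to spike-in RNA moved the median of all genes to 0.02, and the vesicle and SNARE medians then became 0.03 and −0.04. The active zone median was above 0 and the SNARE median below 0 under all alternatives run, but without control replicate 1 they were 0.02 and −0.001. The median of all genes was then −0.067, so that the SNARE median lay above it. It also did so without KO replicate 2, at −0.052 against −0.063. With the mean of a gene's probes the SNARE median was −0.075, against −0.065 over all genes.

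**Figure D3:**
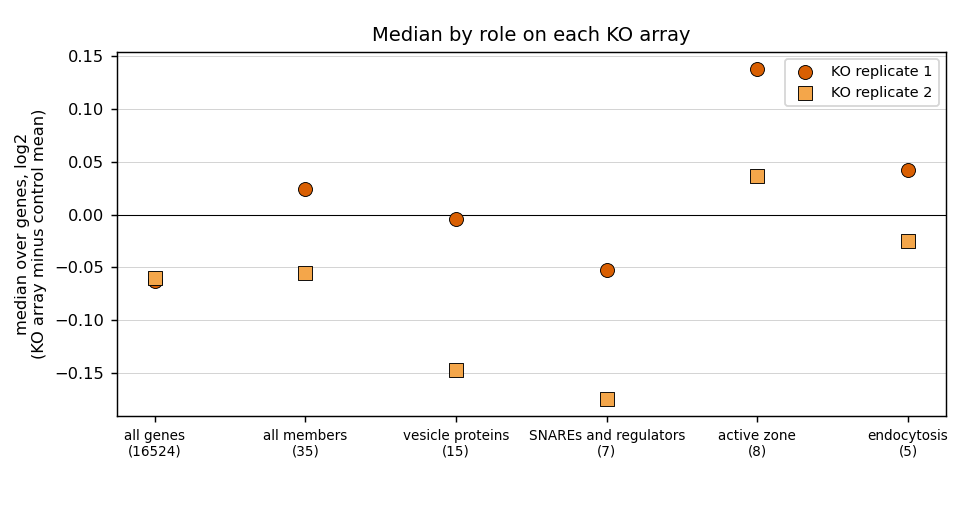
The vertical axis gives the median over genes of log2 signal on 1 KO array minus the control mean, for all genes, for all members and for each role group, with the number of genes in brackets. All genes have the same median on both KO arrays to within 0.01, whereas the members and every role group sit lower on KO replicate 2 (square) than on KO replicate 1 (circle).

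The 2 KO arrays were not alike for these genes. KO replicate 2 was below KO replicate 1 for 23 of 35 members (65.7%), against 50.5% of all genes. By role these were 10 of 15 vesicle proteins, 6 of 7 SNARE genes, 4 of 8 active zone genes and 3 of 5 endocytosis genes. The members' median against the control mean was 0.02 on KO replicate 1 and −0.06 on KO replicate 2. For the vesicle proteins these medians were −0.005 and −0.15, and for the SNARE group −0.05 and −0.17. KO replicate 2 was below both controls for 20 members and above both for 8, whereas KO replicate 1 was below both for 11 and above both for 15. Among all genes, 49.3% were below both controls on each of the KO arrays, and 27.5% and 27.6% were above both on KO replicates 1 and 2. The same direction was seen in a further list of release genes, of which 60 of 84 (71.4%) were lower on KO replicate 2.

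Agreement between probes of a gene was examined for the 16 members with more than 1 kept probe. The sign was the same on all probes for 7 of them (Syt2, Syn3, Snap25, Rab3a, Rab3c, Rims2 and Dnm1), and for 9 the differences of the probes lay within 0.25 of each other. Only Nsf and Bsn had probes that differed by 0.5 or more, and for both the deviating probe was on the patch. Over all 54 kept member probes, 2 had an unadjusted p under 0.05, where 14.0% of all probes did, and 25 had groups that did not overlap, where 49.3% did.

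**Figure D4:**
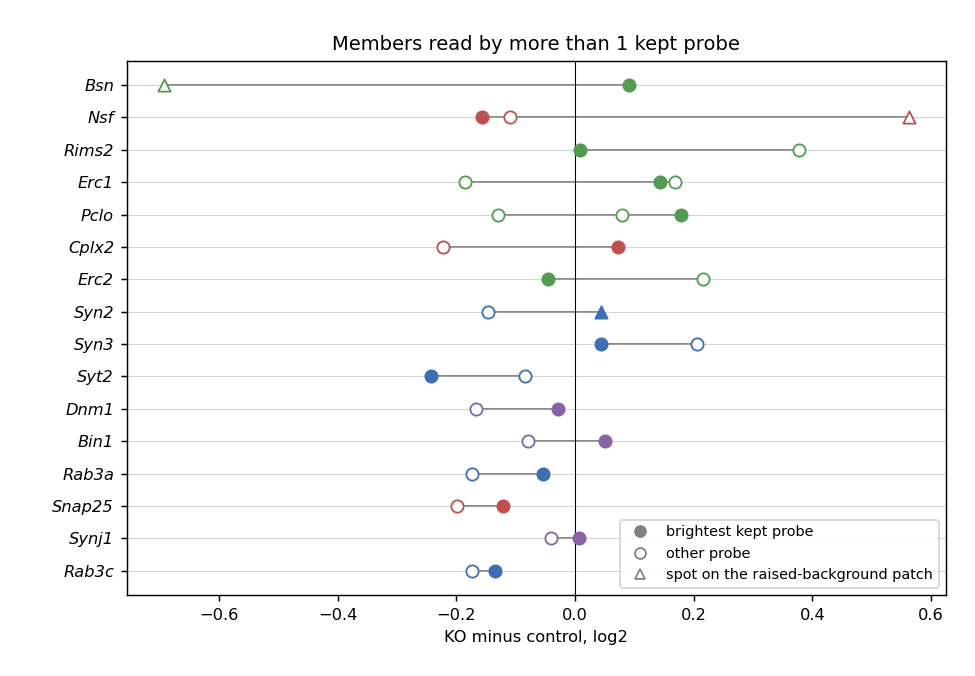
KO minus control differences in log2 for every kept probe of the 16 members with more than 1; filled symbols are the brightest probes, open symbols the others, and triangles have their spot on the patch of raised background. The widest gaps, for Bsn and Nsf, each end in a triangle.

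Other genes of the vesicle cycle were taken from a list of 88, of which 84 had a kept probe. Their median difference was −0.05, and 0 passed the adjusted threshold in limma. At an unadjusted p under 0.05 there were 3, all lower in KO, against 5.65% of all genes. Ston2, an endocytic adaptor for synaptotagmin, read −2.14 and −2.31 in control and −2.80 and −2.89 in KO, a difference of −0.63 (SE 0.12, limma adjusted p 0.273). Syt10, a synaptotagmin linked to secretion of growth factors, read −0.27 and −0.22 in control and −0.83 and −0.68 in KO, a difference of −0.51 (SE 0.11, limma adjusted p 0.273). Doc2a, a calcium sensor for spontaneous release, differed by −0.38 (SE 0.12, limma adjusted p 0.332).

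One further gene of this list, Slc18a3, the vesicular acetylcholine transporter, differed by −2.39, with its spot on the patch of control replicate 1, the one array on which it was high (−1.27, against −5.02 on control replicate 2). In the other direction the smallest unadjusted p belonged to Stxbp5l, the SNARE-binding protein tomosyn-2, with a difference of 0.23 (SE 0.10, limma adjusted p 0.411). It was followed by Itsn1, the endocytic scaffold intersectin-1, with 0.19 and an adjusted p of 0.467 in limma, and by the synaptotagmin Syt6 with 0.19 and 0.521. None of the 3 passed the threshold, and for all 3 both KO arrays were above both controls. Napb, a partner of Nsf, read between 4.92 and 4.99 on all 4 arrays. Groups did not overlap for 38 of the 84, 10 higher and 28 lower, a split near that of all genes.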

How the data were processed

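Per the labels' protocols, each sample gave 150 ng of total RNA for Cy3 labelling. The authors' deposited scanner files hold the intensity of each spot; its processed form was background-subtracted and detrended, with no normalization across arrays. Per the file headers, the software was Feature Extraction 12.1.1.1 from Agilent. A deposited table of log2 values, of unstated scale and centring, had column medians from −0.22 to 0.007. Its columns differed from each other as the scanner values did, less a constant per array, within 0.01 for 100% of 20300 bright probes. Its direction and log2 scale therefore match, and how each probe was centred is unknown.

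Spots of a probe were averaged as log2 intensity after control spots and outlier-flagged spots (65 to 176 per array) had been removed, and the 75th percentile of the array was then taken off. A probe was kept if both arrays of either group had it well above background, which left 37516. Of 35886 probes with a RefSeq accession, 32994 (91.9%) were named through a RefSeq table of GRCm38.p6. KO was compared with control in limma 3.58.1 (R 4.3.3; lmFit and eBayes, no covariates, 4.35 degrees of freedom), with Benjamini-Hochberg adjustment over all kept probes. The fit was tested on simulated data.

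Members and lists were chosen with earlier results of these data known. Tests are given for the 3 members of smallest unadjusted p per role group, for members at least 1.5-fold apart without overlap, for members whose probes differed by 0.5 or more, and for the 3 further release genes of smallest p per direction. Values of other members, Slc17a7, Slc17a8, Slc18a3, Napb and single marker genes, and the tests of Snap25 and of the dimmer Rims2 probe, were added after their values were seen. Some genes of the lists are not reported here.

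Alternatives were other scalings (quantile, median, 6 spike-in probes), the submitters' values, normexp with an offset of 50 on the spot median (the files have no spot mean), other filters, flagged spots kept, patch spots left out, a trend with robust variances, a replicate block, each array left out, and the mean of a gene's probes. A patch spot has raised local background (more than 1.5 times its array's median) or lies within 2 rows or columns of such a spot.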

Additional observations from a re-analysis of the deposited data

How the results depend on the processing

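No member gene or member probe passed the adjusted threshold under any alternative run. Over the whole table the count was 0 and became 1 under quantile normalization, centring on the median, spike-in scaling and omission of patch spots, 2 under normexp, 4 under the trend with robust variances, and 0 to 98 with an array left out. Members with an unadjusted p under 0.05 numbered 1, and 2 with centring on the median, probes well above background on all 4 arrays, the trend or the mean of a gene's probes, 3 under normexp, 0 with no filter and 0 to 2 with an array left out. Members with separate groups numbered 15, 13 under normexp, 16 under spike-in scaling and without patch spots, 17 with centring on the median, and 22 to 28 with an array left out, where a lone array has no spread of its own. The count at 1.5-fold with separate groups, 1, became 0 under spike-in scaling, normexp and without control replicate 1 (0 to 1 over the arrays left out).

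The median of all members, −0.02, became 0.036 under quantile normalization and 0.065 under spike-in scaling (−0.055 to 0.024 with an array left out). For vesicle proteins, −0.055, it became 0.0026 under quantile normalization, 0.0299 under spike-in scaling, −0.116 without patch spots and −0.114 with the mean of a gene's probes (−0.147 to −0.0046 with an array left out). For the SNARE group, −0.12, it became −0.037 under spike-in scaling, −0.056 under quantile normalization and −0.075 with the mean of probes (−0.175 to −0.0014). For endocytosis, 0.0088, it became 0.075 under quantile normalization, 0.093 under spike-in scaling and −0.014 with the mean of probes (−0.025 to 0.042). For the active zone, 0.12, it became 0.202 under spike-in scaling and 0.064 with the mean of probes (0.019 to 0.196). The median of all genes, −0.064, became −0.027 under quantile normalization and 0.021 under spike-in scaling. It thus rose together with the median of every role group. Spike-in scaling shifts each array by a constant, so that all differences rose alike under it. The median of all genes was −0.061 without patch spots and −0.065 with the mean of probes (−0.067 to −0.058 with an array left out). The cause of the moves under these last settings was not tested.

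Of 221 values of 13 named members under alternatives, 10 changed sign, those of Dnm1, Amph, Bsn, Nsf and Bin1. Dnm1 became 0.036 under quantile normalization, 0.055 under spike-in scaling and 0.014 under normexp. Amph became −0.018 under normexp and ran from −0.055 to 0.095 with an array left out, and Bsn from −0.0033 to 0.184. With the mean of their probes, Nsf became 0.099, Bin1 −0.014 and Bsn −0.30.

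The labels number replicates 1 and 2 in each group but do not say that a number pairs samples. The correlation of deviations from the group means was 0.12 for same-numbered samples. With the replicate number as a block the count over the whole table stayed 0, members with an unadjusted p under 0.05 numbered 1, and the adjusted p of Rims3 was 0.321.

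All 54 kept member probes were well above background on all 4 arrays. The members of lowest signal still depended on the background correction. Rims3, Unc13a and Stx1a had the lowest control means of all members, at −3.12, −3.20 and −2.37. Under normexp, Rims3 went from 0.28 to 0.22, Unc13a from −0.32 to −0.22 and Stx1a from 0.34 to 0.21. Each kept its direction, and the part of background in these values was not tested.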
